A study of Mus musculus with 28 samples.

Results

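The white adipocyte genes Adipoq, Lep, Plin1, Plin4, Fabp4, Lpl, Pparg, Cebpa, Retn and Cfd were followed in healing mouse skin. They were chosen by name from the gene count table as 10 of its 29068 gene symbols, and all 10 were among the 18107 genes that passed the filter on low counts. RNA was sequenced from C57BL/6J mouse skin during natural wound healing, in 28 libraries that fall into 7 groups of 4. The groups are day 0, which the submitters call the control, and 6 later days of healing (3, 5, 7, 10, 12, 14), and no group received a drug or carried a second genotype. According to the study's methods the transcriptome came from young adult MLKL+/+ mice, MLKL being the effector kinase-like protein of necroptosis, with a circular punch through the dorsal skin down to the fascia, and each sample was the whole wound site with scab and epithelial margin. The study's figure legends call the day of injury day 1, and its methods start the time course there, so whether the day 0 tissue was intact skin or a fresh wound cannot be told apart from these labels. Total counts were 36706513 to 40655764 per library, with a median of 39499595. Nothing in the labels ties a library to an animal, and p-values therefore measure only the spread between these libraries, which may be technical.

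White adipocytes store triglyceride in a single large lipid droplet and release it as fatty acids when the body needs fuel. In skin they form a dermal layer beneath the hair follicles and the panniculus carnosus muscle lies below it, so a sample reaching the fascia can hold both. The transcription factors PPARγ (Pparg) and C/EBPα (Cebpa) keep each other expressed and switch on the genes of the mature cell, among them droplet coats (Plin1, Plin4), lipid uptake genes (Lpl, Fabp4) and secreted hormones and enzymes (Adipoq, Lep, Retn, Cfd).

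By the GENCODE annotation of GRCm38, the assembly also called mm10, the genes lie at these places, exons and introns included: Pparg at chr6:115360951-115490399 (+), Cebpa at chr7:35119293-35121928 (+), Plin1 at chr7:79720218-79732903 (-), Plin4 at chr17:56100591-56109803 (-), Lpl at chr8:68880491-68907448 (+), Fabp4 at chr3:10204088-10208576 (-), Adipoq at chr16:23146536-23158028 (+), Lep at chr6:29060220-29073877 (+), Retn at chr8:3655770-3660110 (+), Cfd at chr10:79890853-79892655 (+). All are protein-coding genes. The promoters of members matched in the RefSeq table (assembly GRCm38.p6, 8 of the 10 genes) are shown because C/EBP factors bind a short palindrome that can be looked for in them. The letters TTGCNNAA were searched on both strands in the 250 bases before each start. They were present in promoters of 3 members, and in 9.56% of all 32851 promoters of that table. Capitals mark the match in the sequences of Lep, Pparg and Plin1, and the sequence of Adipoq holds no match.

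Lep, chr6:29059971-29060219, + strand: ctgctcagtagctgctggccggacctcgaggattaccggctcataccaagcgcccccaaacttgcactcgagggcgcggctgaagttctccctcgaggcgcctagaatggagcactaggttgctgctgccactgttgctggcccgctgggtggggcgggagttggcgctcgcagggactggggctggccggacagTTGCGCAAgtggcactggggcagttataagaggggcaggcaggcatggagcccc
Pparg, chr6:115421816-115422065, + strand: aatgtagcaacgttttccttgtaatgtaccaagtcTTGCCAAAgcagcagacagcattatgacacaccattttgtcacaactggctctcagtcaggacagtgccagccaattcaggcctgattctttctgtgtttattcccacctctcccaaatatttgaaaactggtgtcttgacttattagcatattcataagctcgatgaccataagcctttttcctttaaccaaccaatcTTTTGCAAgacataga
Plin1, chr7:79732904-79733026, - strand: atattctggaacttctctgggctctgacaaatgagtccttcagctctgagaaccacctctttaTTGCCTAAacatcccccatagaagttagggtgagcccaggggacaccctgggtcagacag
Adipoq, chr16:23146286-23146535, + strand: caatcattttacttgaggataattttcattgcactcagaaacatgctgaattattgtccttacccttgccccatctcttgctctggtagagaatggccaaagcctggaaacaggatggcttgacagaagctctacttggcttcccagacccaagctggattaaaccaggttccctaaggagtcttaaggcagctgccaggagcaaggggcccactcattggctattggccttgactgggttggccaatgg

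The Lep match lies 55 bases before the start and is the full palindrome TTGCGCAA, which 0.164% of the promoters hold. The Pparg stretch lies before one of the 3 starts listed for that gene and holds 2 matches, and the Plin1 stretch, cut at an annotated exon, holds 1. Other stretches of letters were searched the same way: AGGTCA, in a promoter of Pparg and in 14.0% of all promoters, TATAAA, in promoters of Pparg and Cebpa and in 12.4%, and CCAAT, in promoters of Pparg, Adipoq and Plin4 and in 33.8%. A match is a description of these letters only. The 3 genes with a match followed different courses in the libraries.

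All 10 members were read at high depth, from 382 counts for Lep in its lowest library on day 5 to 156974 counts for Fabp4 in its highest on the same day. Together they made up 0.658% of all counts on day 0 (SD 0.069, n = 4), a low of 0.62% on day 12 and a high of 0.977% on day 14. Every defining adipocyte gene was thus present in every library, the day 0 libraries included. In whole tissue, fewer cells of a type and less RNA per cell cannot be told apart, and this holds for each change given here.

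The day 0 libraries did not form one group. Replicates 2 and 3 correlated across genes at r = 0.990 and replicates 1 and 4 at r = 0.976, whereas the other pairs gave 0.969 to 0.971. Levels in CPM are counts scaled to the library total adjusted by the trimmed mean of M-values (TMM). Summed skeletal muscle markers stood at 33188 and 35531 CPM in replicates 1 and 4 against 20950.3 and 21486 in replicates 2 and 3. Summed fibroblast markers stood in the same pairs at 25557 and 14658 against 56822 and 54569.9 CPM. The 10 members together differed less, at 5759, 7059, 6792 and 7303 CPM in replicates 1 to 4. The part of this split in the comparisons with day 0 was not tested, and values with either pair alone as the control are given where they change a call.

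The first question the design poses is which members differed from day 0 as the wound healed. Each day was compared with day 0 in 1 edgeR quasi-likelihood fit, in CPM scaled by the trimmed mean of M-values, and a member was called at a Benjamini-Hochberg adjusted p under 0.05 over all 18107 genes. These 6 comparisons share the 4 day 0 libraries. The fit used 1 estimate of each gene's spread for all days. Estimated day by day over all genes, the coefficient of variation between libraries was 26.5% on day 0 and 5.77% to 10.8% on later days. The SE and adjusted p of comparisons with day 0 can therefore understate the spread of the control. The members did not move as a block, and on most days some were higher and others lower.

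On day 3, 4 members were higher (Plin4, Fabp4, Lpl and Pparg) and 4 lower (Adipoq, Lep, Retn and Cfd), against 31.8% and 34.8% of all genes tested. On day 5, 3 were higher and 4 lower, beside 29% and 30.6%. On day 7, 3 were higher and 3 lower, beside 25.6% and 24.8%. On day 10, 2 were higher, Fabp4 and Lpl, and 3 lower, Lep, Plin4 and Cfd, beside 23.5% and 26.9%. On day 12 the balance lay on the lower side, with 6 lower and 1 higher, beside 25.6% and 21.7%. On day 14 it lay on the higher side, with 6 higher and 1 lower, beside 28.2% and 34.5%. The median log2 fold change of the 10 members was -0.26 on day 12 and 0.22 on day 14, where the medians over all genes tested were -0.04 and -0.06. Scaling by total counts moved the day 12 median over all genes to 0.11, and 4 members were then lower and 2 higher, with Pparg and Retn no longer called lower and Fabp4 called higher.

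Changes were mostly small. Under the fold criteria stated in the study's methods (a log2 fold change beyond 1.5 with an unadjusted p under 0.05), only Fabp4 on days 3 and 5 and Lep on day 5 passed. The share of all genes passing on the higher and lower side was 6.5% and 12.4% on day 3 and 5.61% and 8.31% on day 5. No member passed on the later days, where these shares were 4.66% and 4.74% on day 7, 4.33% and 5.14% for day 10, 3.89% and 3.51% for day 12, and 5.15% and 8.83% for day 14.

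**Figure D1:**
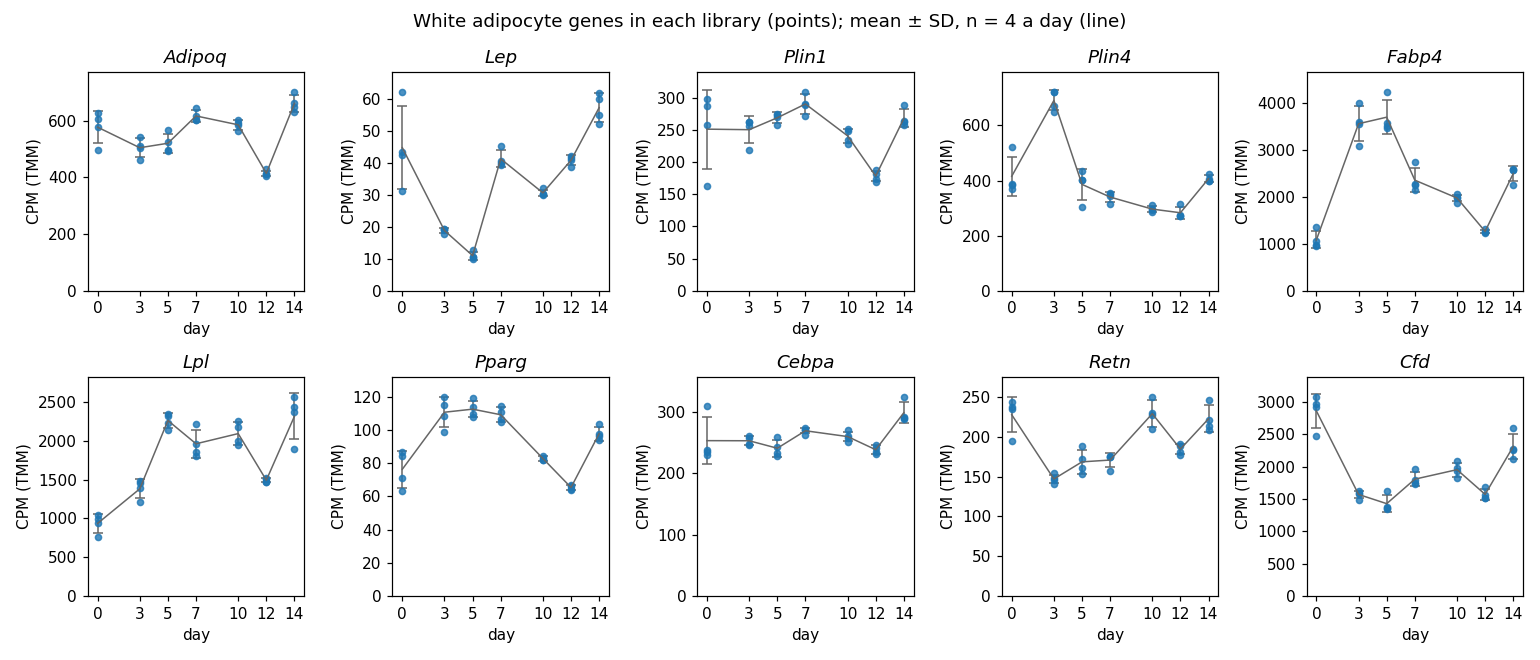
CPM of each of the 10 genes (vertical axes, each from 0) against day (horizontal axes), with 1 point a library and the mean ± SD of 4 libraries a day as a line. Fabp4 and Lpl lie above their day 0 libraries on days 3 to 10, Lep is lowest on day 5, and every gene is higher on day 14 than on day 12.

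Among the transcription factors, Pparg encodes the nuclear receptor that adipocytes need to form and to persist. It was 63.0, 86.8, 84.3 and 71.4 CPM in the 4 day 0 libraries and 99.1, 109, 115 and 120.0 CPM on day 3. All day 3 libraries lay above all day 0 libraries, and the log2 fold change was 0.54 (SE 0.07, adjusted p = 2.2e-07). The level stayed at 108 to 119 CPM on day 5 and 105 to 115 CPM on day 7, returned to 81.7 to 84.6 CPM on day 10 and was lowest on day 12 at 63.8 to 66.6 CPM. Day 12 overlapped with day 0, and the log2 fold change there was -0.22 (SE 0.07, adjusted p = 0.012), a call that did not hold with replicates 1 and 4 alone as the control (-0.02, adjusted p = 0.82), with total count scaling (-0.08, adjusted p = 0.38), when FPKM were tested with limma (-0.07, adjusted p = 0.45 to 0.49), in a fit of the 8 libraries alone (-0.23, adjusted p = 0.12) or without day 0 replicate 2 or 3 (adjusted p = 0.089 and 0.072). Pparg was called higher on day 10 with replicates 1 and 4 alone (0.30, adjusted p = 0.00049) and when FPKM were tested with limma (0.18, adjusted p = 0.039 to 0.049). On day 14 Pparg was higher again, at 93.8 to 104 CPM, with a log2 fold change of 0.36 (SE 0.07, adjusted p = 9.2e-05). An antisense gene, Gm44079, overlaps Pparg on the other strand, and whether the counting used strand is not given in the sources used here.

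Cebpa, the partner of PPARγ in mature adipocytes and also expressed in epidermis and in myeloid cells, had the smallest range, with its highest day mean 1.25 times its lowest. Its 4 libraries read 239, 235, 230.4 and 310.3 CPM on day 0 and 291, 293, 325 and 289 CPM on day 14. Replicate 4 of day 0 stood above the other three and overlapped with day 14. Cebpa passed the test only on day 14, with a log2 fold change of 0.24 (SE 0.07, adjusted p = 0.0033) that became 0.43 without day 0 replicate 4, while on days 3 to 12 the estimates ran from -0.09 to 0.09. The calls on those days depended on the control libraries. With replicates 1 and 4 alone as the control Cebpa was called lower on day 5 (-0.18, adjusted p = 0.037) and day 12 (-0.19, adjusted p = 0.036), and with replicates 2 and 3 alone it was called higher on day 7 (0.22, adjusted p = 0.0023) and day 10 (0.16, adjusted p = 0.018). Without day 0 replicate 4 it was higher on day 3 (0.16, adjusted p = 0.0071). An antisense gene, Gm45091, also overlaps this gene.

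The droplet coat genes differed from each other. Plin1 encodes perilipin 1, which covers the droplet of white adipocytes and gates lipolysis. It read 163, 298, 287 and 258 CPM on day 0, where replicate 1 was well below the others, and 182, 169.8, 174 and 188 CPM on day 12. Only day 12 was called, at -0.50 (SE 0.11, adjusted p = 0.00044), although its libraries overlapped with replicate 1 of day 0. With replicates 1 and 4 alone as the control the day 12 value was -0.22 (adjusted p = 0.079), and Plin1 was called higher on day 3 (0.30, adjusted p = 0.013), day 5 (0.37, adjusted p = 0.0033), day 7 (0.47, adjusted p = 0.00044) and day 14 (0.43, adjusted p = 0.00086). With replicates 2 and 3 alone it was called lower on day 3 (-0.22, adjusted p = 0.0047) and day 10 (-0.28, adjusted p = 0.00084). The direction of Plin1 on day 3 thus differed with the control libraries used. Plin4 encodes perilipin 4, a coat of small, new droplets. It was 369, 386, 384 and 522 CPM on day 0 and 672, 720.2, 649 and 723 CPM on day 3, and no library of the 2 days overlapped. The day 3 change was 0.73 (SE 0.09, adjusted p = 8.4e-08), the highest level of this gene on any day. It was back at 305 to 433 CPM on day 5 and called lower on day 7 (-0.29), day 10 (-0.49) and day 12 (-0.55, SE 0.09, adjusted p = 1.8e-05). The day 7 call did not hold with replicates 2 and 3 alone as the control (-0.18, adjusted p = 0.085) or without day 0 replicate 4 (-0.16, adjusted p = 0.089). Plin4 shares bases with Hdgfl2 on the other strand.

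The lipid uptake genes rose. Lpl encodes lipoprotein lipase, which frees fatty acids from circulating triglyceride, and Fabp4 encodes the fatty acid carrier of the adipocyte cytosol. Fabp4 read 960.4, 1052, 978 and 1350.1 CPM on day 0, 3089.9, 3612, 3553 and 4015 CPM on day 3 and 3578, 3522, 3478 and 4251 CPM on day 5. Every library of both days exceeded every day 0 library, and the fitted folds were 3.29 on day 3 and 3.42 on day 5 with a log2 SE of 0.10 and an adjusted p of 7.9e-15 on day 5. The fold fell to 2.18 on day 7 and 1.82 on day 10. On day 12 the libraries read 1241, 1245, 1259.8 and 1319 CPM, below replicate 4 of day 0, and the log2 fold change of 0.22 (SE 0.09, adjusted p = 0.054) missed the threshold, which 20 of 41 alternative fits passed. With replicates 2 and 3 alone as the control it was called higher (0.32, adjusted p = 0.0034). On day 14 the fold was 2.31.

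Lpl rose more slowly and was higher on all 6 days. It read 765, 1041, 996 and 944 CPM on day 0, 1208, 1452, 1388 and 1482 CPM on day 3 and 2353, 2233, 2148 and 2326 CPM on day 5. No library of any later day overlapped with day 0. The log2 fold change was 0.56 (SE 0.09, adjusted p = 4.8e-06) on day 3. It ran between 1.07 and 1.27 over days 5 to 10, dipped to 0.67 on day 12 and reached 1.31 (SE 0.09, adjusted p = 1.7e-12) on day 14.

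Macrophages and capillary endothelium also express Fabp4, and macrophages express Lpl. Of 12 macrophage markers, 11 were higher on day 3, 11 on day 5 and 1 on day 14, with 10 lower on day 14. Their summed level was 2445 to 3440.3 CPM on day 0, 6519 to 7013 CPM on day 5 and 1560.2 to 1618 CPM on day 14. Of 10 endothelial markers, 7 were higher on day 3 and 7 on day 5, with none higher and 5 lower on day 14, at summed levels of 602 to 794 CPM on day 0, 1018 to 1164 CPM on day 5 and 516 to 589 CPM on day 14. No marker of either list was at 0 in all libraries of a day. Trem2, of lipid-laden macrophages, had a log2 fold change of 1.83 (SE 0.38, adjusted p = 0.00018) on day 5, against day 0 libraries that ranged from 2.22 to 24.2 CPM, and Mrc1, of resident ones, of 1.07 (SE 0.15, adjusted p = 7.1e-07) on day 3 and -2.51 (SE 0.16, adjusted p = 2.6e-13) on day 14. The endothelial junction genes Cdh5 and Cldn5 were at 1.23 and -0.35 on day 3. On day 7, 10 of 12 macrophage and 7 of 10 endothelial markers were higher, beside 25.6% of all genes. Most markers of both lists were thus higher on days 3, 5 and 7, on which Fabp4, Lpl and Pparg were higher too. The part of these cells in those changes was not tested. On day 10, 5 macrophage markers were higher and 7 lower and 6 endothelial markers were higher and none lower. On day 12, 2 macrophage markers were higher and 6 lower and no endothelial marker was higher and 6 were lower. The Lpl folds on these days were 2.24 and 1.6. On day 14 the summed level of both lists lay below that of every day 0 library. The 1 macrophage marker called higher on that day was Gpnmb, at 149 to 249 CPM on day 0 and 483 to 518 CPM on day 14. Unlike most of the list, Gpnmb lay below its day 0 range on day 3, at 80.7 to 99.6 CPM. Trem2, with a log2 fold change of 0.72 (SE 0.38, adjusted p = 0.1) on day 14, lay inside its day 0 range at 19.1 to 21.9 CPM. The part of these cells in the day 14 levels of Fabp4 and Lpl (2.31-fold and 2.48-fold) was not tested either.

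The secreted products followed different courses. Adipoq encodes adiponectin, an insulin-sensitising hormone made almost only by adipocytes. It was called lower on days 3, 5 and 12 and higher on day 14. It was 498, 606, 578 and 627 CPM on day 0, 411, 411, 407 and 429 CPM on day 12 and 650.1, 663, 703 and 630.3 CPM on day 14. Day 12 lay below and day 14 above all day 0 libraries. The log2 fold changes were -0.48 (SE 0.06, adjusted p = 4.3e-07) on day 12 and 0.20 (SE 0.06, adjusted p = 0.0078) on day 14, the latter 0.32 without day 0 replicate 4. On days 3 and 5 the values were -0.19 and -0.15 (adjusted p = 0.0079 and 0.041), with libraries that overlapped with day 0. Neither call held with replicates 1 and 4 alone as the control (adjusted p = 0.21 and 0.25) or in a fit of the 8 libraries alone (adjusted p = 0.056 and 0.18), and that of day 5 did not hold without the low count filter either (-0.16, adjusted p = 0.059).

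Lep encodes leptin, which signals the size of fat stores, and had the widest range among the members, with a day 14 mean 5.23 times that of day 5. Its libraries read 31.1, 42.3, 43.2 and 62.1 CPM on day 0, 18.9, 19.2, 17.8 and 19.2 CPM on day 3 and 9.98, 10.4, 10.6 and 12.8 CPM on day 5. Every library of days 3 and 5 lay below every day 0 library. The log2 fold change was -1.25 (SE 0.12, adjusted p = 4.8e-10) on day 3 and -2.03 (SE 0.12, adjusted p = 7.7e-14) on day 5, when 0.245 of the day 0 level remained. It was back at 39.3 to 45.1 CPM on day 7, called lower on day 10 (-0.55, with libraries that overlapped), and highest on day 14 at 51.9, 55.0, 61.8 and 60.0 CPM. The day 14 call, 0.36 (SE 0.12, adjusted p = 0.009), did not hold in a fit of the 8 libraries alone (0.43, adjusted p = 0.064). Without day 0 replicate 4 the value was 0.63 on day 14 and -0.34 on day 10.

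Retn encodes resistin, an adipose hormone of the mouse, and was lower on days 3, 5, 7 and 12. It fell from 195, 236, 237 and 244 CPM on day 0 to 141, 148, 146 and 154 CPM on day 3, with a log2 fold change of -0.63 (SE 0.07, adjusted p = 1.3e-08). On days 10 and 14 it was at 209 to 250.2 and 209 to 247 CPM and overlapped with day 0. The day 12 call (-0.30, adjusted p = 0.00099) missed the threshold with total count scaling (-0.16, adjusted p = 0.053) and when FPKM were tested with limma (-0.15, adjusted p = 0.056 to 0.075).

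Cfd encodes adipsin, the complement factor D protease that adipocytes secrete, and was lower on all 6 days. It read 2475, 3076, 2974 and 2914 CPM on day 0, 1486, 1599, 1569 and 1621 CPM on day 3 and 1381, 1352, 1350.4 and 1623 CPM on day 5. The log2 fold change was -0.87 (SE 0.07, adjusted p = 4.6e-11) on day 3 and on day 5 the gene stood at 0.499 of its day 0 level (log2 SE 0.07, adjusted p = 3.7e-12). Cfd was at 1727 to 1961 CPM on day 7, 1821 to 2081 CPM on day 10, 1516 to 1691 CPM on day 12 and 2121 to 2590.5 CPM on day 14. Only day 14 overlapped with day 0, and its value of -0.31 (SE 0.07, adjusted p = 0.00067) did not hold with replicates 1 and 4 alone as the control (-0.15, adjusted p = 0.13) or in a fit of the 8 libraries alone (-0.24, adjusted p = 0.058).

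**Figure D2:**
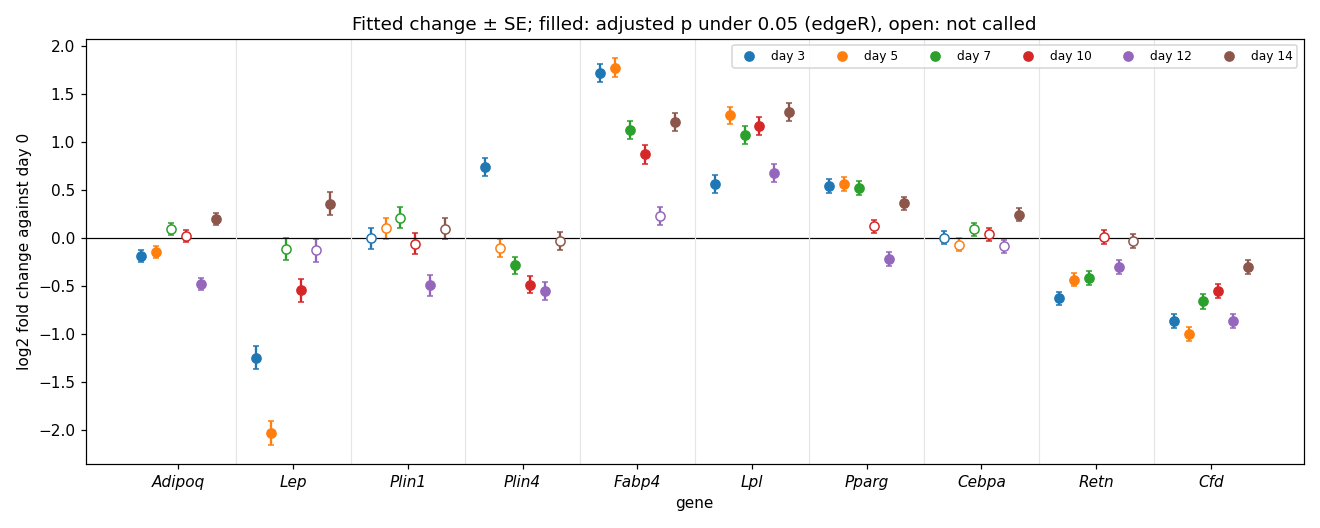
Log2 fold change against day 0 (vertical axis) with its SE for each gene (horizontal axis) and each of 6 days (colours, from left to right), from the edgeR fit, with filled points for an adjusted p under 0.05 and open points for the rest. Lpl lies above 0 and Cfd below it with filled points on every day, Fabp4 lies above 0 with an open point on day 12, and Lep reaches -2.03 on day 5.

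Each member was also permuted alone (exact, two-sided, on log2 CPM). With 4 libraries against 4 this exact permutation test cannot go below p = 0.0286, and this value is reached wherever the 2 groups do not overlap. Against day 0 this held for 7 members on day 3 and 6 on day 5, of which 4 and 3 lay above day 0, where 28.2% and 23% of all genes did. The 3 members below on each day compare with 28.5% and 23.2% of all genes. On day 7, 3 members lay above and 3 below, beside 19.9% and 19.3%. Day 10 had 2 above and 2 below, beside 19.5% and 21.9%. Day 12 had 1 above, Lpl, and 4 below, beside 18.6% and 20.2%, and day 14 had 4 above and 0 below, beside 23.4% and 27.3%.

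Compared per length, in fragments scaled to gene length and library total (FPKM), the order of the members also changed. On day 0 Cfd was the highest at 3032 ± 293 FPKM (SD, n = 4), followed by Fabp4 at 1189 ± 201 FPKM and Adipoq at 458 ± 46.5 FPKM. On day 5 Fabp4 was the highest at 3947 ± 354 FPKM, ahead of Cfd at 1469 ± 123 FPKM and Lpl at 531 ± 18.7 FPKM. Lep was the lowest of the 10 on both days, at 13.4 ± 3.9 and 3.19 ± 0.347 FPKM.

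Levels were next set against Adipoq within each library, as a description. Fabp4 stood at 1.87 times the CPM of Adipoq on day 0, 7.05 times on day 3, 7.11 times on day 5 and 3.78 times on day 14. Lpl went from 1.62 times on day 0 to 4.35 times on day 5, and Cfd from 4.95 times to 2.74 times. The ratio lay outside its day 0 range on all 6 days for these 3 genes, upward for Fabp4 and Lpl and downward for Cfd. Lep was below its day 0 ratio on 3 days and reached 0.0209 times on day 5. The ratio of Plin1 overlapped with day 0 on all 6 days. On day 12, when Adipoq itself was lowest, Fabp4 was still at 3.06 and Lpl at 3.61 times its CPM.

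**Figure D3:**
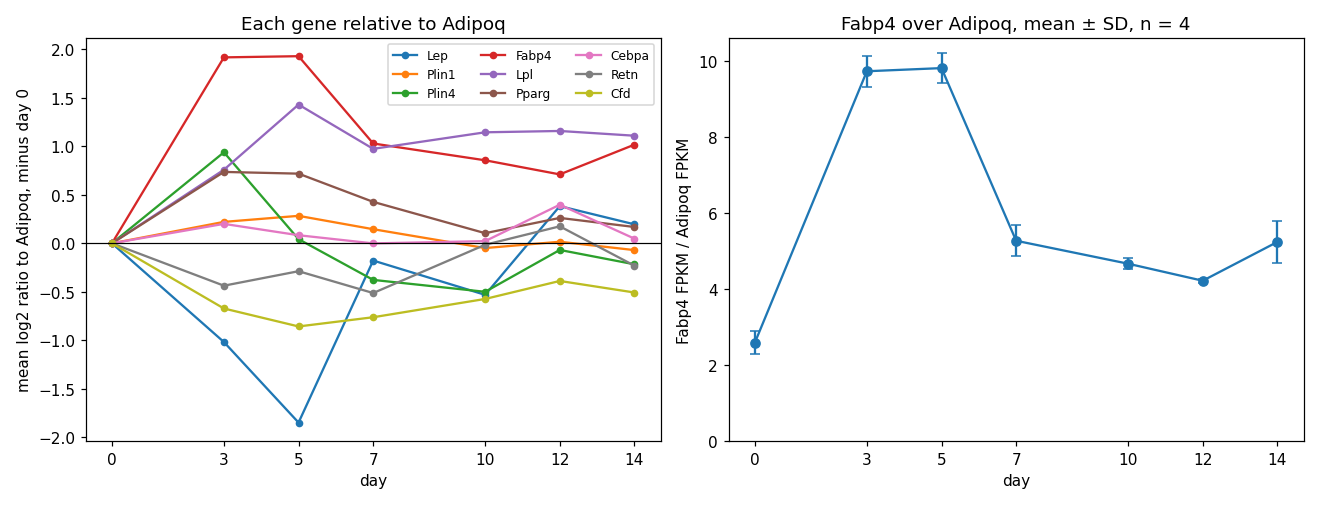
Left, the mean log2 ratio of each gene's CPM to that of Adipoq minus its value on day 0 (vertical axis) against day; right, the ratio of Fabp4 FPKM to Adipoq FPKM, mean ± SD of 4 libraries. Fabp4 and Lpl stay above 0 and Cfd below 0, and the FPKM ratio goes from 2.59 on day 0 to 9.82 on day 5 and 5.24 on day 14.

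Neighbouring days were compared in the same fit, in contrasts that leave the day 0 level out. Day 5 against day 3 gave 2 higher (Lpl and Retn) and 2 lower (Lep and Plin4) members, beside 12.9% and 11.4% of all genes. Day 7 against day 5 gave 3 higher (Adipoq, Lep and Cfd) and 1 lower (Fabp4), beside 13.9% and 14.6%. The Lep step was the largest, from 9.98 to 12.8 CPM to 39.3 to 45.1 CPM, a log2 fold change of 1.91 (SE 0.12, adjusted p = 2.8e-12). Day 10 against day 7 gave Retn higher and Lep, Fabp4 and Pparg lower, beside 14.3% and 18%. The Retn call between days 3 and 5 (0.20, adjusted p = 0.045) did not hold with DESeq2 size factors (0.19, adjusted p = 0.061), without the low count filter (adjusted p = 0.069) or with DESeq2 (adjusted p = 0.0505). The Fabp4 call between days 7 and 10 (-0.25, adjusted p = 0.040) did not hold when FPKM were tested with limma (-0.20, adjusted p = 0.10 to 0.13), with total count scaling (adjusted p = 0.10) or without the low count filter (adjusted p = 0.082). With Xist as a covariate the Fabp4 adjusted p was 0.055. Xist reached at most 13 counts in any library, so that fit cannot adjust for sex.

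Between days 10 and 12 most members fell. Of the 10, 7 were lower and Lep alone was higher, beside 20.7% and 18.7% of all genes. Without overlap, 8 lay below and 1 above, beside 23.5% and 22.3%. Fabp4 fell by 0.64 on the log2 scale (SE 0.09, adjusted p = 3.3e-06), Adipoq by 0.50 and Plin1 by 0.43. Lep rose by 0.42 (SE 0.12, adjusted p = 0.0056).

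Between days 12 and 14 all 10 members were higher, and in each the 4 day 14 libraries lay above the 4 day 12 libraries, beside 19.9% of all genes called higher and 20.7% without overlap. None was lower, beside 25.3% called lower and 26% without overlap. The log2 fold change ran from 0.27 (SE 0.07, adjusted p = 0.0031) for Retn to 0.98 (SE 0.10, adjusted p = 4e-09) for Fabp4. The median over the members was 0.57 and that over all genes tested -0.04. All 10 were called higher in every alternative fit tried.

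Ordered by mean CPM over the 7 days, several neighbours in a gene's order did not differ beyond their spread. Days are grouped below by these neighbouring steps alone, so days further apart in a group may still differ. Lep ran from day 14 down to day 0, days 7 and 12, day 10, day 3 and day 5, where days 0, 7 and 12 were not separated and the other steps were. Fabp4 ran from days 5 and 3, which were not separated, to days 14 and 7, then day 10, then days 12 and 0. Cfd ran from day 0 to day 14 to days 10 and 7 and then to days 12, 3 and 5. Adipoq ran from days 14, 7, 10 and 0, with no neighbouring step separated, to days 5 and 3 and then day 12. Its day 14 was nevertheless called above day 10 (adjusted p = 0.019) and day 0 (adjusted p = 0.0078). Lpl ran from days 14, 5, 10 and 7 to days 12 and 3 and then day 0, and its day 14 was called above day 7 (adjusted p = 0.024). Pparg ran from days 5, 3, 7 and 14 to days 10 and 0 and then day 12, and Retn from days 10, 0 and 14 to days 12, 7 and 5 and then day 3. Pparg on day 14 was called below day 5 (adjusted p = 0.014) and day 3 (adjusted p = 0.029). The only step between neighbours that was called in Plin1 was that down to day 12, and in Plin4 that from day 3 down to day 0, after which the levels fell in small steps to day 12. Cebpa had no such step, although days further apart in its order, such as 14 and 12, differed (adjusted p = 0.00031).

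Among all genes with a mean of at least 10 CPM (10735 genes), those whose log2 CPM followed Adipoq most closely over the 28 libraries were Ivd (Pearson r = 0.93), Hibadh (0.86), Echdc3 (0.85), Aco1 (0.85), Acot13 (0.84), Hadh (0.83), Apoc1 (0.83), Gpx4 (0.83), Aldh6a1 (0.82) and Coq6 (0.82). Without day 0, over 24 libraries, the order was Hadh (0.98), Ivd (0.96), Acad11 (0.96), Acot13 and Dgat2 (0.93 each), Tmem45b (0.91), Hibadh and Apoc1 (0.90 each), Pdp2 (0.89) and Akap1 (0.89). The points share libraries and days. Of the members, Plin1 (r = 0.75) and Cebpa (r = 0.73) were most like Adipoq over the 28 libraries and Plin4 (r = 0.08) least. Over the 45 pairs of members r ran from -0.62 for Lep with Fabp4 to 0.86 for Fabp4 with Pparg, with a median of 0.32 and 31 pairs above 0.

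Other genes of the adipocyte were counted from lists by role. The shares of all genes tested that were higher and lower came to 31.8% and 34.8% for day 3, 29% and 30.6% for day 5, 21.7% and 25.6% for day 12, and 28.2% and 34.5% for day 14. Counts of these lists and of the marker lists of other cell types further below are to be read against these shares. Of 14 droplet and lipolysis genes, 10 were higher and 3 lower on day 3, none higher and 8 lower on day 12, and 6 higher and 3 lower on day 14. The median log2 fold change of the list was 0.88 on day 3 and -0.31 on day 12, where all genes gave -0.03 and -0.04. Plin5, a perilipin of fat-burning cells, went from 4.74 CPM on day 0 to 51.9 CPM on day 5 and 1.85 CPM on day 12, log2 fold changes of 3.45 (SE 0.15, adjusted p = 6.7e-17) and -1.35 (SE 0.17, adjusted p = 2.2e-07). Mgll, which completes triglyceride breakdown, was lower on each day, by 1.00 on the log2 scale on day 3 and 0.25 on day 14.

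Of 17 genes of fatty acid uptake and esterification, 13 were higher and 3 lower on day 5, 3 higher and 7 lower on day 12, and 12 higher and 3 lower on day 14. Pck1, which makes glycerol for triglyceride in adipocytes, had log2 fold changes of 2.49 (SE 0.11, adjusted p = 3.7e-17) on day 3, 0.11 (SE 0.10, adjusted p = 0.4) on day 12 and 1.95 on day 14. The carrier Slc27a4 was -1.03 on day 3 and -1.22 on day 7.

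Of 20 transcription factors and cofactors that act in adipocyte formation, repressors included, 9 were higher and 7 lower on day 3, and 1 higher and 13 lower on day 12. The list holds the repressors Gata2, Gata3 and Klf2, which were at -0.36, -1.96 and 0.38 on day 3, all called. On day 12 Gata2 (-0.37) and Klf2 (-0.52) were among the lower genes and Gata3 was not called. Cebpb, an early factor of adipocyte formation that also responds to inflammation, had a log2 fold change of 1.73 (SE 0.11, adjusted p = 6.7e-14) on day 3, and Klf4 of -1.05 (SE 0.07, adjusted p = 3.3e-13). Of 15 preadipocyte and progenitor genes, 6 were higher and 8 lower on day 3 and 2 higher and 12 lower on day 14. Dlk1, a preadipocyte surface protein, was 1.67 CPM on day 0 and 44.7 CPM on day 10, a log2 fold change of 4.74 (SE 0.27, adjusted p = 6.7e-14), and Clec11a was -2.11 on day 3.

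Of 23 other adipokines and receptors, 14 were higher and 6 lower on day 3, and 4 higher and 12 lower on day 12. Retnla, a resistin-like gene of fat and alternatively activated macrophages, went from 354 CPM on day 0 to 8.5 CPM on day 3, a log2 fold change of -5.38 (SE 0.26, adjusted p = 3e-16).

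Thermogenic adipocytes share Adipoq, Pparg, Fabp4 and Plin1 with white ones and burn lipid through the uncoupling protein UCP1. Of 11 thermogenic genes, 8 were higher and 2 lower on day 3, while day 5 had 9 higher and 1 lower, day 12 had 5 higher and 5 lower, and day 14 had 8 higher and 3 lower. Ucp1 was at 0.158 to 1.27 CPM on day 0, 729 to 979 CPM on day 3, 1705 to 1998 CPM on day 5, 5.33 to 10.7 CPM on day 12 and 441 to 619 CPM on day 14. Elovl3, a fatty acid elongase, was lower on day 3, at -1.45. All Ucp1 libraries of day 12 lay below those of days 10 (291 to 326 CPM) and 14, as did those of 8 of the 10 members, all but Lep and Plin4, beside 6.47% of all genes tested, and the part of thermogenic cells in the members' levels was not tested.

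Skin holds other cells, and their markers changed too. All 10 skeletal muscle markers were lower on each of the 6 days, at 20950.3 to 35531 CPM in sum on day 0 and 5052 to 6288 CPM on day 14, with Pvalb at -3.16 and Mylpf at -2.23 on day 3. Of 11 sebaceous gland markers, 10 were lower on day 3 and 10 on day 14, at 2308 to 2762 CPM in sum on day 0 and 801 to 928 CPM on day 3, Scd3 being -3.31 on day 3 and Fads2 1.81 on day 14. Sebocytes express Pparg, and the part of that gland in the Pparg values was not tested. All 7 neutrophil markers were higher on day 3 (Ly6g was at 0 in all day 0 libraries and Retnlg went from 0.849 to 129 CPM), and of 10 keratinocyte markers 2 were higher and 6 lower, Krt16 at 4.46 and Sbsn at -1.40. Of 8 fibroblast markers, 6 were lower on day 14, with Dcn at -1.80 and Fbn1 at -0.34 (adjusted p = 0.18). Of 7 genes listed as mammary epithelium markers 4 were tested. All 4 were lower on days 3 and 5 and higher on days 12 and 14, with 1 lower on day 7 and 2 on day 10. Among them were Elf5 at 3.52 CPM on day 0 and 32.4 CPM on day 14 and Csn3 at 0.224 and 2.54 CPM. The list summed to only 3.31 to 9.59 CPM on day 0 and 42.5 to 50.4 CPM on day 14. Its milk genes Wap and Lalba reached at most 1 and 8 counts in a library, and Csn2 was not among the gene symbols. Whether the 4 genes mark mammary cells here was not tested. The part of the other cell types in the members' values was not tested.

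**Figure D4:**
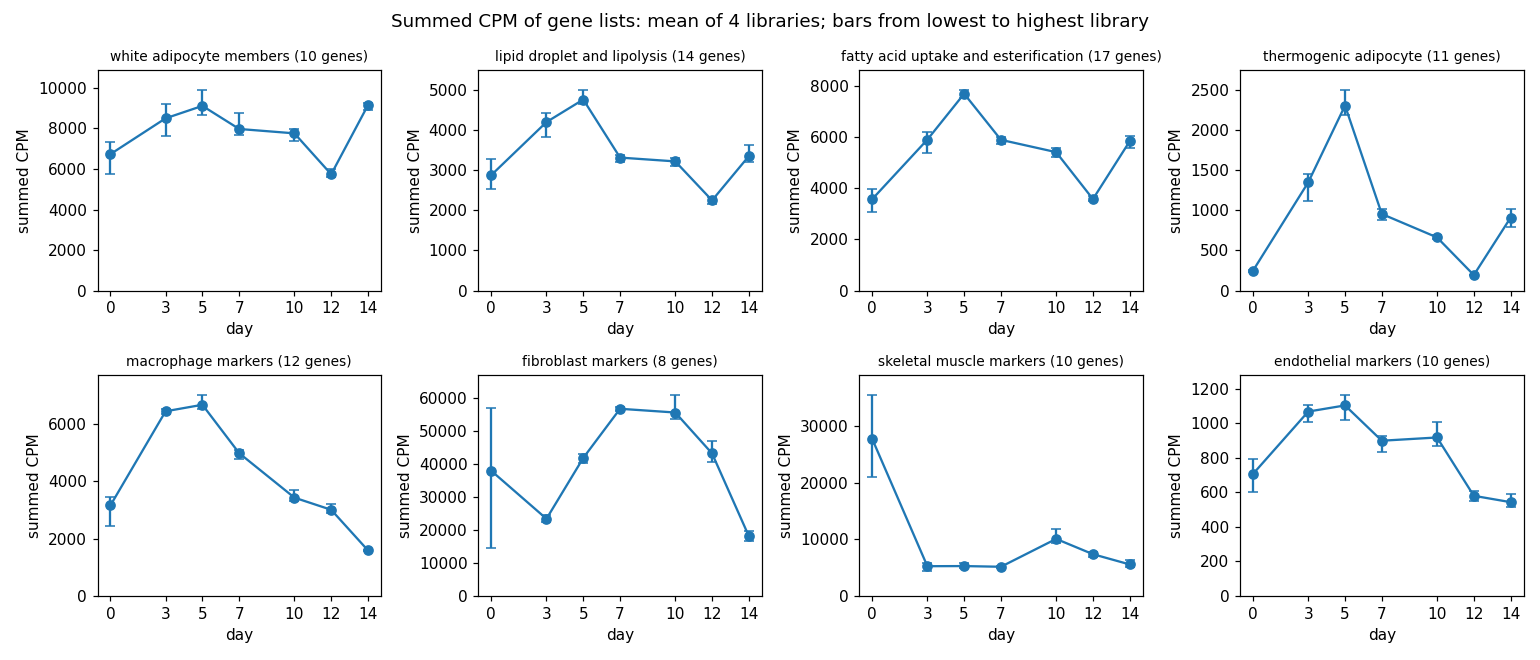
Summed CPM of 8 gene lists (vertical axes, each from 0) against day, as the mean of 4 libraries with bars from the lowest to the highest library. The adipocyte lists dip on day 12 and rise on day 14, while macrophage, fibroblast and skeletal muscle sums on day 14 lie below those of day 12.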

How the data were processed

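RNA-seq counts and FPKM values were taken per gene as the authors deposited them for 28 libraries (7 days, 4 libraries each); the design text names 5 repeats per time point. Per the labels, libraries were made with a VAHTS kit from TRIzol RNA, and the submitters' processing notes list fastp, mm10 and R 3.2.0. The aligner, counter, annotation and strand setting are not given in the sources used here. The deposited FPKM followed from the deposited counts and 1 length per gene in 17705 genes checked, so FPKM added no independent measurement. FPKM served for levels between genes. CPM, which are counts scaled to the library total adjusted by its TMM factor, served within a gene. All columns matched a sample (0 unmapped).

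Counts were tested with edgeR 4.0.16 in R 4.3.3 (TMM factors, low counts filtered by filterByExpr, quasi-likelihood test, 1 mean per day, all 28 libraries in one fit). A gene was called at a Benjamini-Hochberg adjusted p under 0.05 over 18107 genes; the fold criteria were a log2 fold change over 1.5 and an unadjusted p under 0.05. Log2 CPM used a prior count of 2. An exact two-sided permutation test of 4 against 4 libraries cannot go below p = 0.0286. No pair of libraries within a day was a duplicate (lowest median chi-square 1.47 over 42 pairs, 0.455 from sampling noise alone).

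Alternatives were DESeq2 1.42.0 and its size factors, no composition normalization, other count filters, limma 3.58.1 on log2(FPKM + 1) and log2(FPKM + 0.1), fits of 8 libraries, a replicate block, Xist as a covariate and leaving out each library; the split of the day 0 libraries was added after seeing the data. Named were all 10 members, the genes with the highest and lowest mean log2 fold change of each of 14 other lists, Ucp1, and the 10 genes most correlated with Adipoq. One gene that this rule names is not reported here. The members and lists were chosen with earlier results of these data known. The fitting steps were tested on simulated data.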

Additional observations from a re-analysis of the deposited data

Results flagged for a closer look

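Within the days, 11 of 70 sets of 4 libraries held a library whose gap to the next exceeded Dixon's limit, where chance gives about 1 in 20 (3.5 of 70). In log2 CPM, day 0 replicate 4 was high for Plin4 (9.03, the others 8.53 to 8.59) and Cebpa (8.28, the others 7.85 to 7.90), and day 0 replicate 1 was low for Retn (7.61, the others 7.88 to 7.93). Day 5 replicate 4 was high for Fabp4 (12.05, the others 11.76 to 11.81) and Cfd (10.66, the others 10.40 to 10.43). Day 14 replicate 3 was low for Fabp4 (11.14, the others 11.33 to 11.35) and high for Cebpa (8.34, the others 8.17 to 8.20). Single libraries stood apart for Lep on day 10 (replicate 2, 5.00 against 4.90 to 4.92), Plin1 on day 3 (replicate 1, 7.78 against 8.01 to 8.04), Plin4 on day 12 (replicate 4, 8.30 against 8.08 to 8.11) and Retn on day 7 (replicate 2, 7.30 against 7.45 to 7.46).

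Among the members, 4 were called higher than day 0 on some days and lower on others, and for these the highest and lowest days were compared, a pair picked for its difference, with edgeR's adjusted p over all genes. The change also differed between days for members that are not in this group, as the comparison of days 12 and 14 shows. The Adipoq change on day 14 exceeded that on day 12 by 0.67 on the log2 scale (SE 0.06, adjusted p = 1.8e-09). The Lep change on day 14 exceeded that on day 5 by 2.39 (SE 0.13, adjusted p = 1.4e-15). The Plin4 change on day 3 exceeded that on day 12 by 1.29 (SE 0.09, adjusted p = 1.8e-12). The Pparg change on day 5 exceeded that on day 12 by 0.78 (SE 0.07, adjusted p = 2.9e-10).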

How the results depend on the processing

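The counts of members called were within 1.5 times the reported ones under most alternatives. The exceptions follow, and their cause was not tested. On day 12, 2 members were higher in place of 1 with total count scaling, DESeq2, limma on FPKM (pseudocounts 1 and 0.1, and a minimum mean of 1 FPKM) and day 0 replicates 2 and 3 alone as control. On day 14, 0 were lower in place of 1 in the fit of 8 libraries and with day 0 replicates 1 and 4 alone, and with these alone 1 was higher by the fold criteria in place of 0. Between days 3 and 5, 1 was higher in place of 2 with DESeq2 size factors, without the low count filter and with DESeq2. In the fits of 8 libraries 2 were lower in place of 1 between days 5 and 7, and 5 in place of 3 between days 7 and 10. Leaving out each library in turn gave 1 to 2 higher on day 12, 1 to 2 higher between days 3 and 5 and 1 to 2 lower between days 5 and 7.

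Of the members' fold changes that were called, 2725 alternative values stayed called in the same direction and 85 missed the threshold. Leaving out 1 library ended the calls of Adipoq on day 3 (day 0 replicate 4, or day 3 replicate 1, 2 or 3, adjusted p up to 0.16), Adipoq on day 5 (day 0 replicate 2, 3 or 4, any day 3 replicate, day 5 replicate 1, 2 or 3, day 7 replicate 1 or 4, or day 10 replicate 1, 2 or 4, adjusted p = 0.053 to 0.20), Plin4 on day 7 (day 0 replicate 4, adjusted p = 0.089), Pparg on day 12 (day 0 replicate 2 or 3, adjusted p = 0.072 to 0.089), Retn between days 3 and 5 (each of 25 libraries, all but day 5 replicate 2 and day 14 replicates 2 and 3, adjusted p up to 0.21) and Fabp4 between days 7 and 10 (day 3 replicate 2 or 3, day 5 replicate 3, day 7 replicate 3 or 4, or any day 10 replicate, adjusted p up to 0.21). Of the fold changes that were not called, 67 alternative values passed the threshold, 64 in the same direction and 3 with the sign turned. The 3 were Plin1 on day 3 with day 0 replicates 1 and 4 alone (0.30, adjusted p = 0.013), Cebpa on day 3 without day 0 replicate 4 (0.16, adjusted p = 0.0071) and Plin4 on day 14 without day 0 replicate 4 (0.18, adjusted p = 0.048). Fabp4 on day 12 made up 20 of the 64. Leaving out day 0 replicate 1 gave calls for Lep on days 7 (-0.26, adjusted p = 0.026) and 12 (-0.25, adjusted p = 0.030) and Plin1 on day 10 (-0.22, adjusted p = 0.0052). Other calls gained by leaving out 1 library were Cebpa on days 7 and 10 (without day 0 replicate 4, 0.20 and 0.15), Plin1 on day 7 (without day 0 replicate 2 or 3, 0.30 and 0.28), Pparg on day 10 (without day 0 replicate 2, 0.19) and, between neighbouring days, 1 or more of Cebpa, Lpl, Plin4 and Plin1 (without day 0 replicate 1, 2, 3 or 4, day 5 replicate 4 or day 7 replicate 4) and Cfd (without day 5 replicate 4). Calls gained under the other settings, none with the sign turned, were, apart from Fabp4 on day 12 and the split of the day 0 libraries, Pparg on day 10 with limma (0.18), Plin1 on day 14 with limma at a minimum mean of 1 FPKM (0.25), and, between neighbouring days, 1 or more of Lpl, Cebpa, Plin1 and Plin4. No called fold change turned its direction under any alternative run.

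The sign turned in 161 values of fold changes that had not been called, 158 of which were called by neither fit. They are given here as log2 fold changes against day 0 unless a second day is named. With DESeq2 size factors in edgeR these were Plin1 day 3 0.0061, Cebpa day 3 0.010, Plin4 day 14 0.0038 and Retn day 14 0.0015. With DESeq2 these were Plin1 day 3 0.0061, Cebpa day 3 0.011, Plin4 day 14 0.0038 and Retn day 14 0.0015. With total count scaling these were Lep day 12 0.010, Cebpa day 12 0.057, Plin4 day 14 0.096, Retn day 14 0.092, Pparg day 7 against day 5 0.00079 and Plin4 day 12 against day 10 0.025. Without the low count filter these were Plin4 day 14 0.0065 and Retn day 14 0.0025. With at least 10 counts in every library this was Retn day 10 -0.0024. With limma on log2(FPKM + 1) these were Plin1 day 10 0.030, Lep day 12 0.047, Cebpa day 12 0.067, Plin4 day 14 0.11, Retn day 14 0.096, Pparg day 7 against day 5 0.00050 and Plin4 day 12 against day 10 0.021, also with a minimum mean of 1 FPKM. With limma on log2(FPKM + 0.1) these were Plin1 day 10 0.031, Lep day 12 0.053, Cebpa day 12 0.068, Plin4 day 14 0.11, Retn day 14 0.097, Pparg day 7 against day 5 0.00051 and Plin4 day 12 against day 10 0.022. In fits of the 8 libraries alone these were Plin4 day 14 0.041 and Retn day 14 0.037. With Xist as a covariate, which was near 0 CPM throughout, these were Cebpa day 3 0.00091 and Retn day 10 -0.0057. With day 0 replicates 1 and 4 alone these were Plin1 day 3 0.30, Cebpa day 7 -0.027, Plin1 day 10 0.20, Cebpa day 10 -0.076 and Retn day 14 0.098. With day 0 replicates 2 and 3 alone these were Cebpa day 3 0.13, Plin1 day 5 -0.12, Plin4 day 5 0.0056, Cebpa day 5 0.054, Plin1 day 7 -0.0077, Adipoq day 10 -0.014, Pparg day 10 -0.044, Retn day 10 -0.043, Cebpa day 12 0.040, Plin1 day 14 -0.12 and Plin4 day 14 0.081. Over the fits that leave out 1 library, the values of fold changes whose sign turned ran over these ranges: Plin1 day 3 -0.12 to 0.10, Cebpa day 3 -0.043 to 0.16, Plin1 day 5 -0.051 to 0.18, Plin4 day 5 -0.16 to 0.035, Cebpa day 5 -0.12 to 0.052, Lep day 7 -0.26 to 0.082, Adipoq day 10 -0.041 to 0.066, Plin1 day 10 -0.22 to 0.031, Cebpa day 10 -0.0050 to 0.15, Retn day 10 -0.057 to 0.052, Lep day 12 -0.25 to 0.085, Cebpa day 12 -0.12 to 0.043, Plin4 day 14 -0.049 to 0.18, Retn day 14 -0.084 to 0.079, Adipoq day 5 against day 3 -0.032 to 0.067, Fabp4 day 5 against day 3 -0.043 to 0.080, Pparg day 5 against day 3 -0.062 to 0.036, Retn day 7 against day 5 -0.038 to 0.078.

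Replicate numbers did not pair the libraries: the deviations of libraries with the same number had a median correlation of -0.00091, with 1 of 84 pairs over 0.1, and 8 of 28 libraries correlated best with their own number. With the number as a replicate block, 2 members were higher on day 12 in place of 1, and uncalled values turned for Plin1 day 3 0.0046 and Cebpa day 3 0.0031. Plin1 was then also called lower on day 10 against day 7 (-0.27, adjusted p = 0.042).

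Over all genes, total count scaling moved the share of higher calls on day 12 from 45.8% to 67.4%, on day 14 from 45.0% to 56.2%, between days 5 and 7 from 48.8% to 58.9%, between days 7 and 10 from 44.2% to 55.5% and between days 10 and 12 from 47.5% to 63.7%. Limma gave up to 71.0% on day 12 and 60.8% on day 14. Leaving out 1 library moved the share between days 3 and 5 from 53.1% to as low as 41.9% (10 libraries by over 10 points) and that between days 12 and 14 from 44.0% to as high as 54.2% (8 libraries). At totals of 36706513 to 40655764 counts the lowest member value was 382 counts (Lep, day 5), whereas Ucp1 on day 0 rested on 6 to 49 counts.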
